A study of Mus musculus with 5 samples.

Results

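Collagen genes were followed in sorted hair follicle stem cells of adult mice in which Polycomb repressive complex 1 (PRC1) had been removed by induction, and in control cells. The set holds every protein-coding gene of the deposited table whose symbol reads Col, a number, the letter a and a number. These are 38 of 17431 protein-coding genes and of 30840 features in all. The rule uses the name and not the values, but the set was chosen with earlier results of these data known. Some further collagen genes, such as Col6a3 and Col15a1, were not analysed here. They are read here as 3 transmembrane, 8 basement membrane, 8 FACIT (fibril-associated, with interrupted triple helices), 11 fibrillar and 8 beaded filament or short chain collagens.

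The PRC1 i2KO group (3 samples) carried K15-CrePR1 and was Ring1a-/- with Ring1b flox/flox. The Control group (2 samples) was likewise Ring1a-/- with Ring1b flox/flox with no Cre transgene named, so that Ring1a is absent and RU-486 was given in both groups. K15-CrePR1 is a Cre recombinase driven by the keratin 15 promoter and switched on by RU-486. The transgene and the loss of PRC1 cannot be told apart. The drug was applied topically at 1% each day for 10 days, starting at postnatal day 50, and cells were taken at postnatal day 70. Cells high for α6-integrin, positive for EpCAM and CD34 and negative for Sca1 were sorted, with 50000 per sample. The question of the series is how the PRC1 mark H2AK119ub bears on the quiescence of these cells. The labels do not tie the samples to individual mice, and p-values then measure only the spread between these samples, and that spread may come from handling alone.

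Library totals were 25461925 to 43307892 counts in PRC1 i2KO and 42916441 and 11626313 counts in Control. Gene-level values of the floxed gene gave different orders on the count and TPM scales. In counts, Rnf2, which encodes Ring1b, was at 39.9, 33.1 and 36.4 CPM (counts scaled to library size) in PRC1 i2KO libraries and at 27.7 and 37.5 CPM in Control libraries, with overlapping groups. In TPM (a level scaled for transcript length and library) Rnf2 was lower in every PRC1 i2KO library, at 16.8, 12.9 and 11.7 against 25.1 and 24.4 in Control. Ring1, which encodes Ring1a, had 50, 70 and 116 counts in PRC1 i2KO and 92 and 63 in Control. These gene-level values pool deleted and retained exons and do not check the labels. The sorted cell type was checked on 11 bulge and basal markers, all of which were detected in every library and summed to 5944, 7779 and 5130.5 TPM in PRC1 i2KO and to 8075 and 6286 TPM in Control, with Krt5 and Krt15 the largest parts. None of the 11 passed the adjusted edgeR threshold. At an unadjusted p under 0.05, 3 were lower (3.51% of all tested genes were), with every PRC1 i2KO library below both controls: Lhx2 (log2 fold change -0.48), Lgr5 (-0.44) and the sort marker Cd34, at 298, 292 and 164 CPM in PRC1 i2KO and 477 and 326 CPM in Control (-0.68). Krt14 was the 1 marker higher (7.43% of all tested genes were). Ly6a, which encodes the sorted-out Sca1, was at 3.30, 6.23 and 5.32 TPM in PRC1 i2KO and at 2.77 and 1.08 TPM in Control. Mitochondrial ribosomal RNA took 29.7%, 21.4% and 32.0% of counts in PRC1 i2KO libraries 1, 2 and 3, against 16.7% and 22.6% in Control. The part of these differences in the results below was not tested.

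Collagens are trimers of α chains wound into a triple helix of Gly-X-Y repeats. Fibrillar collagens build the tensile fibrils of the dermis and are made mainly by fibroblasts, FACIT collagens decorate those fibrils, and type IV collagen forms the sheet of the basement membrane. Keratinocytes add their own anchors: collagen XVII spans the plasma membrane in the hemidesmosome, and collagen VII forms the anchoring fibrils below it. In the hair follicle, collagen XVII is known as a protein needed to keep bulge stem cells in their niche. Polycomb complexes keep many developmental genes with CpG-rich promoters silent.

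Collagen RNA in these cells was chiefly that of Col17a1, in both groups. The 38 genes together held 630, 998 and 593 TPM in PRC1 i2KO and 1357 and 796 TPM in Control. Col17a1 made up 70.8%, 71.4% and 66.7% of this sum in PRC1 i2KO and 73.6% and 73.1% in Control. Without it the sum was 184, 285 and 198 TPM in PRC1 i2KO, against 358 and 214 TPM in Control, so the groups overlap. At least 1 TPM was reached by 21, 22 and 22 collagen genes in PRC1 i2KO libraries and by 19 and 21 in Control libraries. The next most abundant genes, by mean TPM over the 5 libraries, were Col7a1, Col12a1, Col18a1, Col16a1, Col6a1, Col6a2, Col8a2, Col4a2 and Col5a2. On a log2(TPM + 1) scale the median log2 fold change over all tested genes was itself -0.19, which applies to every order in TPM given here. In these bulk samples, fewer cells of a type and less RNA per cell cannot be told apart.

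**Figure D1:**
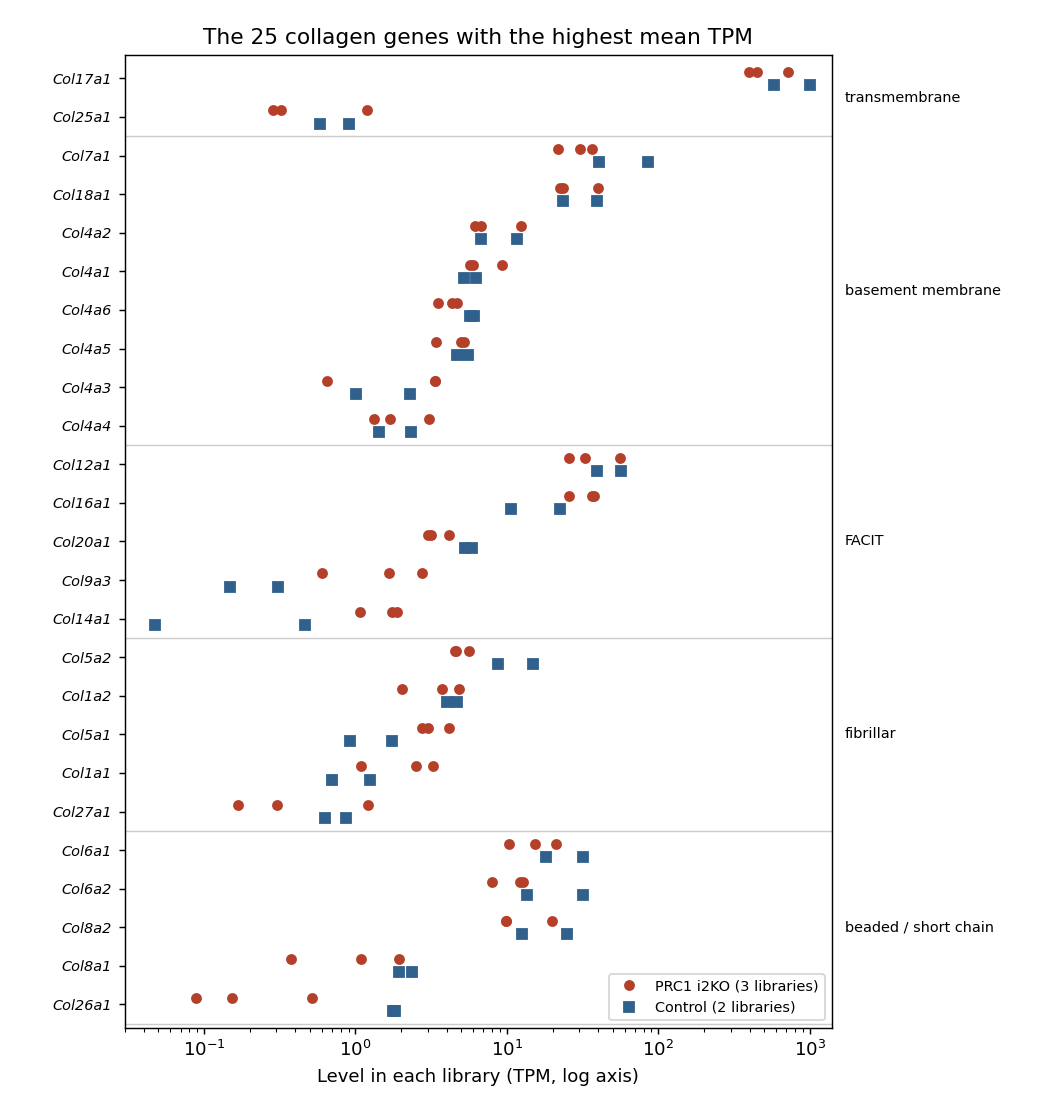
Level (TPM, log axis) of the 25 collagen genes with the highest mean TPM, by class, with 1 circle for each of the 3 PRC1 i2KO libraries and 1 square for each of the 2 Control libraries. Col17a1 stands alone between 395 and 999 TPM, while circles lie to the right of both squares for Col16a1, Col14a1, Col9a3 and Col5a1 and to the left for Col7a1, Col4a6, Col20a1, Col5a2, Col6a2, Col8a1 and Col26a1. The share of all genes with such orders in TPM is not given, and the median of all tested genes was itself lower in PRC1 i2KO on the TPM scale.

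No collagen gene passed the test across the whole table. Of the 38, 31 passed the filter on low counts and were tested with edgeR's quasi-likelihood test. At an adjusted p under 0.05, 0 were called higher and 0 lower, where 0.126% of all 22181 tested genes were called higher and 0% lower. At an unadjusted p under 0.05, 6 were higher (7.43% of all tested genes were) and 2 lower (3.51% of all tested genes were). By DESeq2, 6 of the 30 collagen genes with an adjusted p were called higher (20.0%, against 3.57% of all genes) and 0 lower (against 0.786% of all genes). The 6 called by DESeq2 were Col14a1, Col16a1, Col1a1, Col5a1, Col23a1 and Col9a3, the same 6 that were higher at an unadjusted p by edgeR. limma-voom called 0 in either direction. Over the tested members the log2 fold change had its median at 0.00, with 15 values above 0 and 16 below (49.6% of all tested genes were below 0), over all tested genes at 0.01 and over the 15041 tested protein-coding genes at 0.11.

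The CPM of every PRC1 i2KO library lay above both Control libraries in 7 of the 31 tested collagen genes (Col14a1, Col16a1, Col1a1, Col5a1, Col23a1, Col9a3 and Col4a1), an order shown by 14.6% of all tested genes. It lay below both in 3 (Col5a2, Col10a1 and Col26a1), an order shown by 15.3% of all tested genes. The groups overlapped in the other 21. The classes differed in their spread: tested basement membrane collagens had log2 fold changes between -0.20 and 0.50, FACIT collagens between -0.98 and 3.95, fibrillar collagens between -0.71 and 2.02, and beaded filament or short chain collagens between -1.41 and 0.00, none of them above 0. No difference between classes was tested.

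**Figure D2:**
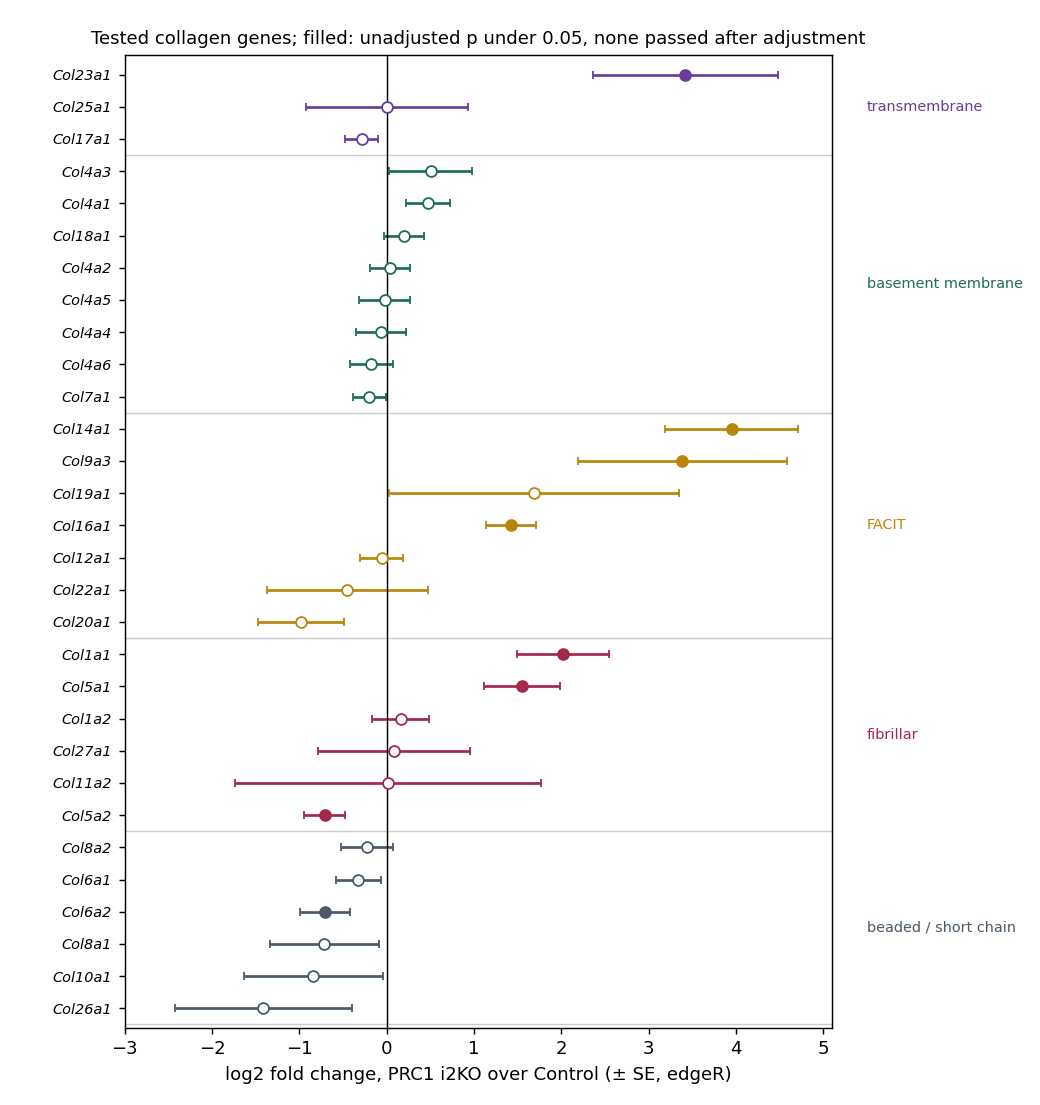
log2 fold change of PRC1 i2KO (3 libraries) over Control (2 libraries), with its SE from edgeR as bars, for 30 tested collagen genes by class (Col6a6, at 0.00, is left out since its SE could not be read from the test). Filled points had an unadjusted p under 0.05, and the widest bars belong to genes with few counts, such as Col11a2 and Col19a1.

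The promoters of Col16a1, Col5a1 and Col23a1, which lay higher, are shown beside that of Col17a1, the most abundant member. RefSeq windows (GRCm38.p6, from 250 bases before to 50 after the start of the gene) were matched by symbol for 29 of the 38 genes, giving 31 windows, and the dinucleotide CG was counted, which reads the same on both strands. The median window held 13 CG over the collagen windows and 7 over all 32851 windows. Of the 7 tested genes that lay higher in every PRC1 i2KO library, 4 had a window, and Col14a1, Col1a1 and Col9a3 had none. Col16a1 held 24 CG and Col23a1 24 (20.0% of all windows held at least as many), Col5a1 34 (7.73%) and Col4a1 37 (5.58%). Col17a1 held 5, a number reached by 62.0% of all windows. CG-rich windows were also found among genes that did not lie higher, such as Col8a2 with 32 and Col4a2 with 33. Col9a2, which was not tested but was higher in every PRC1 i2KO library, held 10, a number reached by 43.5% of all windows. The 250 bases before the start are given 5′ to 3′ on the strand of the gene, with each CG in capitals. The window of Col16a1 is chr4:130047590-130047839 (+), that of Col5a1 is chr2:27886175-27886424 (+), that of Col23a1 is chr11:51289670-51289919 (+) and that of Col17a1 is chr19:47692043-47692292 (-). These positions are on GRCm38, whereas the expression table was made on mm39. These stretches hold 21, 28, 18 and 2 CG in Col16a1, Col5a1, Col23a1 and Col17a1. A count of CG is a description of the sequence and does not show binding. A link between CG and the order of the libraries was not tested.
Col16a1: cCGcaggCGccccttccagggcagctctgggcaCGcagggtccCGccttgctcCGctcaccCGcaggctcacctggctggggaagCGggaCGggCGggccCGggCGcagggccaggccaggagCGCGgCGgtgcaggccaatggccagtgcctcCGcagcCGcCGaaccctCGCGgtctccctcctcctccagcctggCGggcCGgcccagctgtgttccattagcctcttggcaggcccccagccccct
Col5a1: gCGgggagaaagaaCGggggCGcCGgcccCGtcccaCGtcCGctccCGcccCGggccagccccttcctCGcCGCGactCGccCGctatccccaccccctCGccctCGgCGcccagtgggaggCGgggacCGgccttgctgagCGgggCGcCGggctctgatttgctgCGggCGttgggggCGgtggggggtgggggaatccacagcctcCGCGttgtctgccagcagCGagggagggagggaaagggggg
Col23a1: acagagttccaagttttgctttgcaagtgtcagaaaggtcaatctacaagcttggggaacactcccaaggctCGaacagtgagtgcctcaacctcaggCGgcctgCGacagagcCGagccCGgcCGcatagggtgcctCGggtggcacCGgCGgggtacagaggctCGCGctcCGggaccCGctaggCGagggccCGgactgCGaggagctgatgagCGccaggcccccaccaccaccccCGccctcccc
Col17a1: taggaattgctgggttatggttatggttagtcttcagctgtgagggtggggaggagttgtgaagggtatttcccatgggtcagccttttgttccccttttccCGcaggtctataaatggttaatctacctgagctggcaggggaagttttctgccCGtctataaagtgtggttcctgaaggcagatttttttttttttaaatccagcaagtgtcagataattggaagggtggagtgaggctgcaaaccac

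Among the transmembrane collagens, Col17a1 (ENSMUSG00000025064.14) was the 92nd, 55th and 84th most abundant protein-coding RNA by TPM in PRC1 i2KO libraries 1, 2 and 3, against the 29th and 46th in Control libraries 2 and 3. It was at 446, 713 and 395 TPM in PRC1 i2KO and at 999 and 582 TPM in Control. In scaled counts it was at 3178, 3977 and 2624 CPM in PRC1 i2KO and at 4432 and 3523 CPM in Control, or -0.29 ± 0.19 as a log2 fold change with its SE (edgeR adjusted p = 0.635). Both scales put PRC1 i2KO 2 above Control 3, so the groups overlap.

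Col23a1 (ENSMUSG00000063564.13), a transmembrane collagen that can be shed from the cell surface, was low throughout, with 24, 156 and 98 counts in PRC1 i2KO and 6 and 5 counts in Control. Its CPM was 1.10, 3.52 and 3.10 in PRC1 i2KO, above the 0.122 and 0.397 in Control (log2 fold change 3.42 ± 1.06, edgeR adjusted p = 0.286; DESeq2 adjusted p = 0.0185). The log2 fold change was 2.69 without Control 2, 4.38 without Control 3 and 0.41 on the log2(TPM + 1) scale. Every PRC1 i2KO library was higher than both controls, with PRC1 i2KO 1 the lowest of them. Col25a1, a collagen best known from neurons, was at 1.20, 0.324 and 0.284 TPM in PRC1 i2KO and at 0.583 and 0.913 TPM in Control, with PRC1 i2KO 1 the highest library and the others below both controls (log2 fold change of counts 0.00 ± 0.93, edgeR adjusted p = 1.00).

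Partners of collagen XVII in the hemidesmosome did not pass either. Of the 7 listed genes (Itga6, Itgb4, Plec, Dst, Cd151, Krt5 and Krt14) 0 passed the adjusted edgeR threshold, where 0.126% of all tested genes were called higher and 0% lower. The median log2 fold change was -0.02. Every PRC1 i2KO library lay above both controls in 2 and below both in 1, orders shown by 14.6% and 15.3% of all tested genes. At an unadjusted p under 0.05, 2 were higher and 0 lower, against 7.43% and 3.51% of all tested genes. Krt14, a basal keratin linked to the hemidesmosome, was at 1322, 1431 and 971 CPM in PRC1 i2KO and at 695 and 832 CPM in Control (0.70 ± 0.19, edgeR adjusted p = 0.239). Cd151, a tetraspanin of the hemidesmosome, was at 76.6, 76.2 and 74.2 CPM in PRC1 i2KO and at 46.9 and 59.5 CPM in Control (0.51 ± 0.20, adjusted p = 0.409). For both genes the groups did not overlap, with PRC1 i2KO higher. Itgb4, the integrin chain that binds collagen XVII, lay lower in every PRC1 i2KO library, at 442, 443 and 384 CPM against 504 and 479 CPM in Control (-0.22 ± 0.15, adjusted p = 0.667).

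The basement membrane collagens had the narrowest range of log2 fold changes among the classes, with all 8 members tested. Of these, 4 log2 fold changes were above 0 and 4 below (49.6% of all tested genes were below). In either direction 0 were past the unadjusted threshold, where 7.43% of all tested genes were higher and 3.51% lower. The 6 chains of type IV collagen assemble as fixed trimers, the ubiquitous α1α1α2 form and tissue-restricted forms of the other 4 chains. Col4a1 (ENSMUSG00000031502.11) was at 31.1, 39.7 and 43.7 CPM in PRC1 i2KO and at 25.8 and 29.3 CPM in Control. The groups did not overlap in CPM, with a log2 fold change of 0.47 ± 0.26 (edgeR adjusted p = 0.558), whereas in TPM they did, at 5.98, 9.32 and 5.72 in PRC1 i2KO and 6.24 and 5.18 in Control. Its partner Col4a2 was at 56.8, 65.3 and 48.6 CPM in PRC1 i2KO and at 62.3 and 48.5 CPM in Control (0.04 ± 0.23, adjusted p = 0.974), with the groups overlapping. Col4a1 and Col4a2 lie head to head, and in RefSeq (GRCm38.p6) their starts are 21 bases apart and their windows share 78 bases. Col4a5 and Col4a6, a second head-to-head pair, start 1343 bases apart. Their log2 fold changes were -0.02 ± 0.29 and -0.17 ± 0.24 (adjusted p = 0.987 and 0.854). Col4a3 and Col4a4, the third such pair, had log2 fold changes of 0.50 ± 0.47 and -0.06 ± 0.29 (adjusted p = 0.762 and 0.967).

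Col7a1 (ENSMUSG00000025650.13), the anchoring fibril collagen, gave different pictures on the 2 scales. In counts it was at 221, 242 and 247 CPM in PRC1 i2KO and at 320 and 223 CPM in Control, where the groups overlap (-0.20 ± 0.19, edgeR adjusted p = 0.771). In TPM it was at 21.6, 36.7 and 30.2 in PRC1 i2KO and at 85.9 and 40.8 in Control. Every PRC1 i2KO library was below both controls, on a scale where the median of all tested genes was also lower. Dividing count by TPM gives an implied transcript length, which was 1.58, 1.32 and 1.39 in PRC1 i2KO and 0.969 and 1.03 in Control, relative to the mean of the controls. A log2 fold change of -1.03 on the log2(TPM + 0.1) scale was the lowest over the alternatives tried, and none of them gave an adjusted p under 0.05. Col18a1, the source of endostatin, was at 138, 196 and 126 CPM in PRC1 i2KO and at 150 and 118 CPM in Control, with PRC1 i2KO 2 the highest and the others overlapping (0.20 ± 0.23, adjusted p = 0.819).

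FACIT collagens held the members with the smallest p. Col14a1 (ENSMUSG00000022371.16), a fibril-associated collagen of the dermis also called undulin, had 179, 323 and 314 counts in PRC1 i2KO and 41 and 2 counts in Control. It was at 8.20, 7.29 and 9.93 CPM in PRC1 i2KO and at 0.832 and 0.159 CPM in Control. The PRC1 i2KO libraries were close to each other and all above both controls, with a log2 fold change of 3.95 ± 0.77 (edgeR adjusted p = 0.134; DESeq2 adjusted p = 3.26e-07). With few control counts the size is uncertain, and it was 3.35 without Control 3 and 5.70 without Control 2.

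Col16a1 (ENSMUSG00000040690.15), found near basement membranes and in fibrillin microfibrils, was the most abundant by TPM among the members that lay higher. By mean CPM in PRC1 i2KO, Col4a1 (38.2) and Col5a1 (33.1) were above it. In Control 2, 674 counts of Col16a1 gave 22.3 TPM, whereas 1273 counts of Col4a1 gave 6.24 TPM. The rank of Col16a1 by TPM therefore rests on an assigned transcript length shorter than that of Col4a1. Col16a1 was at 25.6, 36.5 and 37.5 TPM in PRC1 i2KO and 22.3 and 10.7 TPM in Control. Its CPM was 29.9, 31.0 and 37.6 in PRC1 i2KO and 13.7 and 10.6 in Control, a mean of 32.8 ± 4.17 (SD, n = 3) against 12.2 ± 2.16 (SD, n = 2). The log2 fold change was 1.43 ± 0.29 (edgeR adjusted p = 0.142; DESeq2 adjusted p = 5.01e-05), and the groups did not overlap on either scale.

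Col9a3, a chain of cartilage collagen IX, had 157, 74.4 and 34.1 counts in PRC1 i2KO and 24 and 1 counts in Control. Its CPM was 7.19, 1.67 and 1.08 in PRC1 i2KO and 0.487 and 0.0793 in Control. All PRC1 i2KO libraries lay above both controls, with PRC1 i2KO 1 far above the rest (3.39 ± 1.20, edgeR adjusted p = 0.349; DESeq2 adjusted p = 0.0498), and the log2 fold change was 2.15 without PRC1 i2KO 1, 2.75 without Control 3 and 5.30 without Control 2. Col9a2, another chain of collagen IX, did not pass the filter and had 2, 10 and 37 counts in PRC1 i2KO and none in Control. It was at 0.0917, 0.226 and 1.17 CPM in PRC1 i2KO, highest in PRC1 i2KO 3, where 3 counts over both controls would give 0.0485 CPM.

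Col12a1, the most abundant of the class and a collagen of stretched tissue, was at 237, 413 and 258 CPM in PRC1 i2KO and at 340 and 291 CPM in Control, with overlapping groups (-0.06 ± 0.25, edgeR adjusted p = 0.964). Col20a1 was at 5.64, 4.42 and 9.05 CPM in PRC1 i2KO and at 8.51 and 16.7 CPM in Control (-0.98 ± 0.49, adjusted p = 0.515). PRC1 i2KO 3 lay above Control 2, so the groups overlap in CPM, whereas in TPM every PRC1 i2KO library was below both controls. Col19a1 had 9, 85 and 2 counts in PRC1 i2KO and 22 and 0 counts in Control, with PRC1 i2KO 2 the highest library and the groups overlapping (1.69 ± 1.66, adjusted p = 0.775). Col22a1 did not exceed 1.27 CPM in any library. Over the 7 tested FACIT members the median log2 fold change was 1.43, but -0.10 without PRC1 i2KO 2, 3.47 without Control 2 and 0.13 on the log2(TPM + 1) scale.

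**Figure D3:**
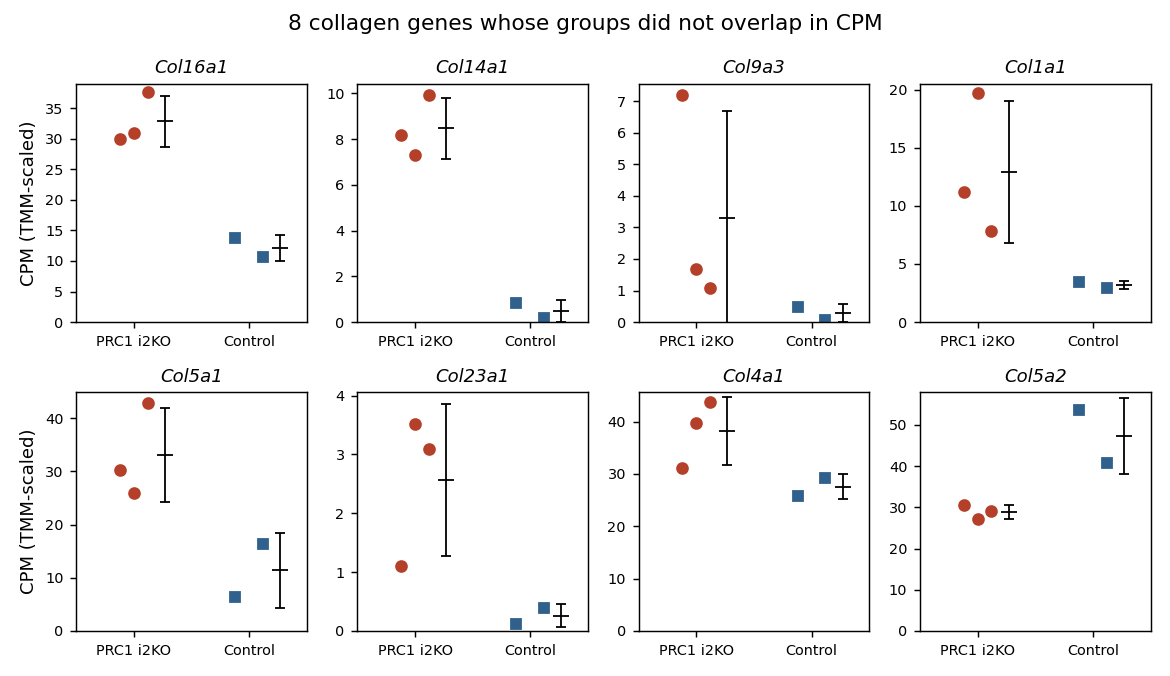
CPM of 8 collagen genes in each PRC1 i2KO library (circles) and each Control library (squares), with the mean and SD of each group beside the points (n = 3 and n = 2; bars are cut at 0). The first 7 panels have every PRC1 i2KO library above both controls, and Col5a2 has every one below. None passed the adjusted edgeR threshold.

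Chains of the same fibrillar collagen differed in how the libraries were ordered, although none passed the adjusted edgeR threshold. Col1a1 (ENSMUSG00000001506.10), the main chain of type I collagen, was at 11.2, 19.7 and 7.88 CPM in PRC1 i2KO and at 3.41 and 2.94 CPM in Control, a log2 fold change of 2.02 ± 0.53 (edgeR adjusted p = 0.215; DESeq2 adjusted p = 0.00333). All PRC1 i2KO libraries lay above both controls in CPM, but in TPM the groups overlapped, at 2.50, 3.25 and 1.09 in PRC1 i2KO and 0.700 and 1.25 in Control. The implied transcript length of Col1a1 was 0.806, 1.42 and 1.44 in PRC1 i2KO and 1.48 and 0.520 in Control, relative to the mean of the controls. The order in TPM thus also depends on assigned lengths that differed between the controls. Col1a2, the second chain of the type I trimer, was at 13.3, 20.3 and 20.8 CPM in PRC1 i2KO and at 16.8 and 15.7 CPM in Control (0.16 ± 0.32, adjusted p = 0.910), and its groups overlapped.

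Type V collagen, which starts and limits fibril growth, showed opposite orders for its chains. Col5a1 (ENSMUSG00000026837.15) was at 30.3, 26.0 and 43.0 CPM in PRC1 i2KO and at 6.46 and 16.4 CPM in Control, higher in each PRC1 i2KO library (1.55 ± 0.44, edgeR adjusted p = 0.240; DESeq2 adjusted p = 0.0155). Its log2 fold change was 1.01 without Control 2 and 2.37 without Control 3. Col5a2 (ENSMUSG00000026042.16) was at 30.5, 27.1 and 29.2 CPM in PRC1 i2KO and at 53.8 and 40.8 CPM in Control, lower in each PRC1 i2KO library (-0.71 ± 0.24, edgeR adjusted p = 0.321; DESeq2 adjusted p = 0.0847). TPM gave the same orders, with Col5a1 at 2.74, 3.01 and 4.14 TPM in PRC1 i2KO and 0.926 and 1.74 TPM in Control, and Col5a2 at 4.55, 4.59 and 5.65 TPM in PRC1 i2KO and 14.8 and 8.73 TPM in Control.

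The balance of chains was therefore set out for 6 pairs of the same collagen type, a comparison chosen after these values were seen. The log2 ratio of Col5a1 to Col5a2 in CPM was -0.01, -0.06 and 0.56 in PRC1 i2KO and -3.06 and -1.31 in Control, a difference of 2.35 (exact permutation test over samples, two-sided, p = 0.1, the smallest that 3 against 2 samples allow; adjusted over the 6 pairs, p = 0.6). That of Col1a1 to Col1a2 was -0.25, -0.05 and -1.40 in PRC1 i2KO and -2.30 and -2.42 in Control, a difference of 1.79 (exact p = 0.2). For both pairs the groups did not overlap, and the sign stayed with each library left out in turn. The difference for Col5a1 and Col5a2 was 1.48 without Control 2 and 3.22 without Control 3. The ratios of Col4a1 to Col4a2, Col4a3 to Col4a4, Col4a5 to Col4a6 and Col6a1 to Col6a2 differed by 0.42, 0.55, 0.15 and 0.33, and their groups overlapped (exact p between 0.4 and 0.9). The design cannot reach 0.05 in such a test.

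**Figure D4:**
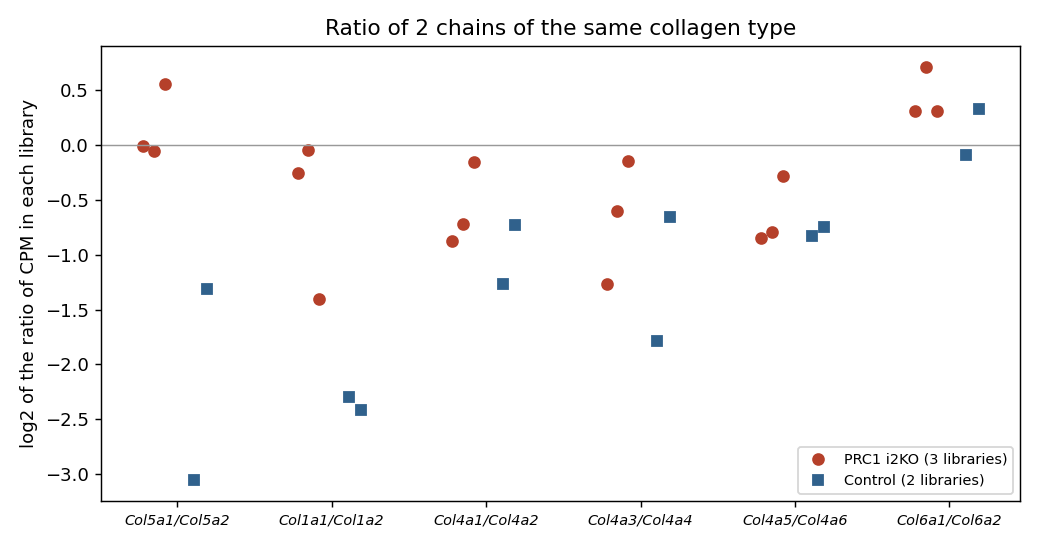
log2 of the ratio of CPM of 2 chains of the same collagen type in each of the 3 PRC1 i2KO libraries (circles) and 2 Control libraries (squares). The circles of Col5a1/Col5a2, from -0.06 to 0.56, and of Col1a1/Col1a2, from -1.40 to -0.05, lie above both squares of the same pair, while the other 4 pairs overlap.

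Of the remaining fibrillar genes, Col27a1 was at a low level in every library and the others had few counts. Col3a1, normally an abundant product of dermal fibroblasts, had 0, 12 and 0 counts in PRC1 i2KO and 0 in both controls. Col24a1 had 13 counts in Control 2 and none in any other library, and Col2a1, Col5a3, Col11a1 and Col11a2 had at most 36 counts in any library. Col27a1 was at 1.28, 1.60 and 8.73 CPM in PRC1 i2KO and at 3.59 and 3.73 CPM in Control, with PRC1 i2KO 3 above and the other PRC1 i2KO libraries below the controls.

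Fibroblasts, the main source of fibrillar collagen in skin, were checked with 12 markers that are no collagens. Of these, 9 were in the table, 4 were tested, 0 passed the adjusted edgeR threshold and 2 were higher at an unadjusted p under 0.05, against 7.43% of all tested genes. The 9 summed to 42.8, 35.2 and 49.8 TPM in PRC1 i2KO and to 24.9 and 20.4 TPM in Control. Fbln1 was the largest part in every library but PRC1 i2KO 3, at 29.0, 20.5 and 19.3 TPM in PRC1 i2KO and 21.5 and 16.0 TPM in Control, with the groups overlapping in TPM and PRC1 i2KO higher in CPM (0.53 ± 0.24, edgeR adjusted p = 0.467). Pdgfra, a growth factor receptor of mesenchymal cells, was at 32.5, 25.4 and 16.0 CPM in PRC1 i2KO and at 3.37 and 2.22 CPM in Control (3.11 ± 0.45, edgeR adjusted p = 0.0502; DESeq2 adjusted p = 2.07e-10). Thy1 was at 6.23, 5.46 and 18.9 CPM in PRC1 i2KO and at 1.73 and 3.73 CPM in Control (1.93 ± 0.71, edgeR adjusted p = 0.369; 1.11 without PRC1 i2KO 3). Both lay higher in every PRC1 i2KO library, an order shown by 14.6% of all tested genes. Cd248, the other tested marker, had a log2 fold change below 0 (-0.88, edgeR adjusted p = 0.885). It was at 0.0458, 0.925 and 0.506 CPM in PRC1 i2KO and at 0.0812 and 1.82 CPM in Control, with overlapping groups. Other defining fibroblast genes were at or near 0: Lum, a dermal proteoglycan, did not exceed 0.0552 TPM in any library, and Dcn was at 0.0178, 0.0430 and 1.51 TPM in PRC1 i2KO and at 0.0443 and 0.0183 TPM in Control. Mfap5 was lower in every PRC1 i2KO library and did not exceed 0.42 TPM. Twist2 was detected in PRC1 i2KO 3 only and Clec3b in PRC1 i2KO 1 only, and both had no count in Control. The other 3 listed markers were not analysed here. Markers of the dermal papilla summed to 22.3, 19.0 and 11.3 TPM in PRC1 i2KO and to 13.3 and 6.50 TPM in Control, with Crabp1 the largest part in every PRC1 i2KO library, and those of mural and muscle cells to 22.3, 37.1 and 28.2 TPM in PRC1 i2KO and to 52.4 and 35.4 TPM in Control. Nearly all of the mural sum was Cspg4, at 20.4, 34.7 and 26.0 TPM in PRC1 i2KO and 51.1 and 34.4 TPM in Control. Notch3 went the other way, at 19.4, 12.7 and 20.3 CPM in PRC1 i2KO and 7.59 and 8.65 CPM in Control (1.11 ± 0.37, edgeR adjusted p = 0.321), and Rgs5, Acta2, Myh11 and Tagln did not exceed 0.511 TPM in any library. The part of other cell types in the collagen values was not tested.

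Of the 7 tested beaded filament and short chain collagens, 0 passed the adjusted edgeR threshold and 1 was lower at an unadjusted p under 0.05 (3.51% of all tested genes were). Every PRC1 i2KO library was below both controls in 2 and above in 0, orders shown by 15.3% and 14.6% of all tested genes. The groups overlapped in the other 5. Col6a1 and Col6a2 encode chains of the beaded filaments around cells and are neighbours in the genome. Col6a1 was at 80.6, 87.0 and 51.1 CPM in PRC1 i2KO and at 103 and 79.0 CPM in Control (-0.32 ± 0.26, edgeR adjusted p = 0.718), with the groups overlapping. Col6a2 was at 65.0, 52.9 and 41.2 CPM in PRC1 i2KO and at 110 and 62.9 CPM in Control (-0.71 ± 0.29, adjusted p = 0.420; -0.24 without Control 2 and -1.05 without Control 3), where PRC1 i2KO 1 lay just above Control 3 in CPM, while in TPM all 3 PRC1 i2KO libraries were the lower ones. Col8a2, a network-forming short chain collagen, was at 51.9, 85.5 and 47.8 CPM in PRC1 i2KO and at 84.6 and 59.7 CPM in Control (-0.23 ± 0.29, adjusted p = 0.839), with PRC1 i2KO 2 the highest of all. Col10a1, the collagen of hypertrophic cartilage, was at 0.733, 1.06 and 1.23 CPM in PRC1 i2KO and at 2.11 and 1.51 CPM in Control, and Col26a1 at 0.183, 0.383 and 0.949 CPM in PRC1 i2KO and at 1.44 and 1.27 CPM in Control. Both were lower in every PRC1 i2KO library and neither had an adjusted p under 0.6 by edgeR. Col8a1 reached 12.8 CPM at most, Col6a6 0.569 CPM, and Col6a4 had at most 1 count in a library.

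The machinery that makes and crosslinks collagen was read from a list of 34 genes, of which 32 were in the table and 30 were tested. None passed the adjusted edgeR threshold, and at an unadjusted p under 0.05 there were 3 higher and 0 lower (7.43% and 3.51% of all tested genes were). The median log2 fold change was 0.33 with 24 values above 0 and 6 below (49.6% of all tested genes were below). All listed genes are protein-coding, and the median of tested protein-coding genes was 0.11, against 0.01 over all tested genes. Every PRC1 i2KO library was above both controls in 9 of the 30 genes and below in 0, orders shown by 14.6% and 15.3% of all tested genes. P4hb, a subunit of prolyl 4-hydroxylase, was at 112, 129 and 117 CPM in PRC1 i2KO and at 82.0 and 90.3 CPM in Control (0.47 ± 0.18, edgeR adjusted p = 0.394). Plod2, a lysyl hydroxylase that sets the kind of crosslink, was at 4.22, 2.26 and 2.88 CPM in PRC1 i2KO and at 0.772 and 0.476 CPM in Control (2.28 ± 0.79, edgeR adjusted p = 0.339; DESeq2 adjusted p = 0.0454). The crosslinking enzyme Loxl1 had 32, 49 and 61 counts in PRC1 i2KO and 9 and 0 counts in Control (3.71 ± 1.29, edgeR adjusted p = 0.340). Its size rests on those 9 counts, being 3.02 without Control 3 and 8.38 without Control 2, where no control count is left. All 3 were higher in every PRC1 i2KO library. The collagen chaperone Serpinh1 was at 30.0, 34.0 and 20.5 TPM in PRC1 i2KO and at 42.7 and 17.2 TPM in Control, with overlapping groups.

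Collagen receptors showed no call among 10 tested genes, with 1 higher and 0 lower at an unadjusted p under 0.05 (7.43% and 3.51% of all tested genes were) and a median log2 fold change of -0.05. Every PRC1 i2KO library was above both controls in 1 and below in 3, orders shown by 14.6% and 15.3% of all tested genes. Mrc2, an endocytic receptor that takes up collagen fragments, was at 2.20, 3.99 and 4.33 CPM in PRC1 i2KO and at 0.954 and 0.714 CPM in Control, higher in every PRC1 i2KO library (2.06 ± 0.75, edgeR adjusted p = 0.358). Itga10, a collagen-binding integrin chain, was lower in every PRC1 i2KO library, at 2.57, 2.10 and 2.82 CPM against 7.74 and 4.05 CPM in Control (-1.25 ± 0.58, adjusted p = 0.484). Itga11, the collagen-binding integrin chain of fibroblasts, had 0, 46.0 and 11.0 counts in PRC1 i2KO and 1 and 0 counts in Control. The epithelial receptors Ddr1 and Itgb1 had log2 fold changes of -0.03 and -0.07.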

How the data were processed

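Polyadenylated RNA of 5 sorted samples was sequenced, and the authors deposited an expected count and a TPM value per gene and sample. Tools listed in the submitters' processing notes, with no roles given, are RSEM 1.3.3, STAR 2.7.9a and DESeq2 1.38.2, and the build is mm39. The deposited expected counts (60.2% not whole to within 1e-06) were rounded. The TPM values, as deposited by the authors, take transcript length into account. The use of strand in counting is not stated in the labels. In GENCODE M21, 14 of the 38 collagen genes overlap another gene of their own strand and 16 a gene of the other strand, so reads in these overlaps make the values of such genes uncertain. Col14a1, Col5a1, Col9a3 and Col4a1, which lay higher in CPM, are among them, as are Col5a2, Col10a1 and Col26a1, which lay lower. Col16a1, Col1a1 and Col23a1, which also lay higher, overlap no other gene.

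The whole table was fitted in R 4.3.3 by the quasi-likelihood F test of edgeR 4.0.16 (TMM scaling, filterByExpr, group only) with Benjamini-Hochberg adjustment over 22181 genes and a threshold of 0.05. The SE is the log2 fold change divided by the square root of F. Alternatives used DESeq2 1.42.0, limma 3.58.1 on voom weights or log2(TPM + pseudocount of 1 or 0.1), other scalings and filters, a block by sample number, and each library left out. On simulated counts of the same 22181 genes, edgeR recovered 11.9%, 53.7% and 77.3% of 2-fold, 4-fold and 8-fold changes. Changes were put only into genes with a mean of at least 1 CPM, and the simulated spread followed abundance, not the single gene. Recovery for genes of fewer counts was not measured. Implied lengths were scaled to the median of protein-coding genes with at least 100 counts in every library. The floor of 3 counts covers counting error only.

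Members, lists and classes were chosen with earlier results of these data known. Named are members past the threshold, the 10 most abundant, the 10 with the smallest p, Col17a1 and Col4a1, and the 3 list genes with the smallest p. Others named, such as Col3a1 and Col9a2, were chosen after their values were seen. Other cell type lists (dermal papilla, mural, endothelial, Schwann, melanocyte, immune and adipocyte) had 0 genes past the threshold, as had nearly all tested genes (0.126% higher, 0% lower). At an unadjusted p under 0.05 by edgeR, Alx4 (dermal papilla) and Notch3 (mural) were higher, and Kdr (endothelial) and Mitf (melanocyte) lower. Over all tested genes 7.43% and 3.51% were. Melanocyte markers, mostly Mitf, summed to 22.3, 38.1 and 20.7 TPM in PRC1 i2KO and to 71.2 and 44.4 TPM in Control.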

Additional observations from a re-analysis of the deposited data

How the results depend on the processing

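Without a filter on low counts 1 collagen gene was called higher (Col14a1), by DESeq2 6, and with a replicate block by title 2 (Col14a1 and Col5a1), against 0 in the fit reported. The number lower was 0 in all 15 alternatives. Over all genes, against 28 higher and 0 lower, the numbers higher and lower were 140 and 12 with no filter, 754 and 166 by DESeq2, 4 and 0 by limma-voom, 2 and 1 by limma on log2(TPM + 1), 13 and 12 on log2(TPM + 0.1), 8 and 15 with genes of at least 1 TPM in 2 libraries, 140 and 25 with the block by title and 10 and 0 with the block by description. Leaving out each library gave 4 to 39 genes higher (4 without Control 2, 8 without Control 3) and 0 to 4 lower, with a lone control assumed to vary like the other group. The median of the collagen genes, 0.00, was -0.15 by limma-voom, -0.15 on log2(TPM + 1), -0.27 on log2(TPM + 0.1), -0.29 with the TPM filter and -0.094 with the block by description, and -0.076 to 0.073 with each library left out. The TPM scale itself moved the median of all genes to between -0.33 and -0.19.

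Signs changed for genes near 0. Col18a1 was at -0.13 on log2(TPM + 1) with and without the filter and at -0.14 on log2(TPM + 0.1). Col4a2 was at -0.018 by limma-voom, -0.14 on log2(TPM + 1) with and without the filter and -0.15 on log2(TPM + 0.1). Col12a1 was at 0.058 with the block by title. With each library left out, Col7a1 ran from -0.43 to 0.091, Col18a1 from -0.020 to 0.39, Col4a2 from -0.12 to 0.23, Col8a2 from -0.54 to 0.053 and Col12a1 from -0.35 to 0.095. Among the chain ratios, added after the data were seen, the difference ran from -0.016 to 1.12 for Col4a3/Col4a4 and from -0.032 to 0.25 for Col4a5/Col4a6. The causes were not tested.

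Titles number the controls 2 and 3 and the descriptions 1 and 2. Deviations of same-numbered libraries by title correlated at 0.08 and 0.05. With 2 controls, the deviations of 1 mirror those of the other, so these values cannot decide whether libraries were paired. The numbers were not taken as pairs because titles and descriptions disagree. The block changed no other collagen call. Control 3, with 11626313 counts, limits genes of few counts: 1 count there is 0.0793 CPM.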
